A study of Mus musculus with 4 samples.

Results

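The Plec, Dst, Macf1, Map1a, Map1b and Ahnak genes encode very large proteins that tie the filaments of the cytoskeleton to each other and to membranes. Their N6-methyladenosine (m6A) peaks were taken from 4 deposited peak lists of mouse embryonic stem cells by an exact match to the gene symbol. The 6 genes, of 9949 with a listed peak, held 143 of 46417 peaks. Overlapping exon blocks joined these peaks into 38 of the 15487 regions of the series. The groups were Mettl5-/- cells (knockout 1 and 2) and wild-type cells (wild type 1 and 2), all of strain C57BL/6N. RNA fragments precipitated with an m6A antibody were sequenced (MeRIP-seq), and the study asked what the loss of Mettl5, the methyltransferase of an adenosine in 18S ribosomal RNA, does to the m6A map. The labels do not say how many knockout clones or separate cultures there were, so differences between libraries of a genotype may be technical. Protocols shared by all samples also describe embryoid body and neural differentiation, while the source given for each library is embryonic stem cells.

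m6A is the most common internal modification of messenger RNA. It is placed by the Mettl3 and Mettl14 writer complex, and is known to be frequent near stop codons and within unusually long internal exons. Plectin (Plec), dystonin (Dst) and Macf1 belong to the plakins, which join actin filaments, microtubules and intermediate filaments; Dst and Macf1 are also called spectraplakins. Map1a and Map1b are microtubule-associated proteins made as a precursor that is cut into a heavy and a light chain. Ahnak is a scaffold protein of the plasma membrane built mostly of repeats, which are encoded in a single giant exon. In plectin, a pair of very large exons near the 3' end encode the coiled-coil rod and the plakin repeats that bind intermediate filaments.

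The 4 lists held 12699 and 10821 peaks in knockout 1 and 2, against 11696 and 11201 peaks in wild type 1 and 2, and read depth is unknown here. Of 10 stem cell markers, 7 (among them Sox2, Klf4 and Esrrb) had a peak in all 4 libraries, while Nanog, Zfp42 and Dppa5a had none. Of the markers of other cells, 1 of 6 feeder fibroblast genes, 2 of 6 early neural genes and 0 of 6 genes of primitive endoderm and trophoblast were listed in every library. The early neural genes had 8 and 6 peaks in knockout 1 and 2, against 5 in each wild-type library. Among them Sox1 and Nes were listed in every library and 3 genes in some libraries, while Map2, a marker of neurons, had none. How often sets of genes of this size differ so was not computed, and the neural counts were not read as a change. The feeder genes had 2 peaks in each library. Those of primitive endoderm and trophoblast had 2 and 0 in the knockout and 2 and 1 in wild type. The stem cell markers had 11 and 9 peaks in the knockout and 10 and 9 in wild type. In a peak list of bulk RNA, fewer cells of a type, less RNA per cell and less m6A on the transcript cannot be told apart. Below, the covered length is the sum of a gene's peak blocks in exons. Strength is the percentile of a peak's p-value within its own list, 100 being the strongest. Peaks whose p-value has no finite log10 are tied at the top, between percentiles 99.1 and 99.5, and 14 of the 143 peaks are among them. Peak edges move in coarse steps: of 55 differences between start positions of overlapping peaks, 52 were multiples of 30 bp, within 1 bp (single-block peaks). Fold enrichment is the authors' own value for each peak and is used only within a list.

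The 6 transcripts were covered by peaks over long distances in every library. Ahnak had the longest covered length of all 9949 genes, with a mean of 13497.5 bp over the 4 libraries, and Plec was next with 10933 bp. Map1a (7520 bp) held place 8, Map1b (6575 bp) place 11, Dst (5733 bp) place 14 and Macf1 (3675 bp) place 64. The median gene with a peak in all 4 libraries had 647 bp. This order parted from the order by number of peaks. Ahnak held place 3 with a mean of 11 peaks per library, Macf1 place 10 with 7.25, Map1b at place 15 with 6.75 and Map1a at place 35 with 5.25. Plec, with 3 peaks, and Dst, with 2.5, stood at places 346 and 630, because a few very long peaks made up their covered length. The mean covered length per peak was 3644 bp in Plec and 2293 bp in Dst, against 507 bp in Macf1. Genes outside the group with many peaks per library were Ttn (26), Zfhx3 (10.5), Vcan (9.5) and EPPK1 (8.5). Ttn, the gene of the muscle protein titin, had 381 bp per peak. The rule that picked the genes used only their names, but the group was chosen with earlier results of these data known, so these places are a description.

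**Figure D1:**
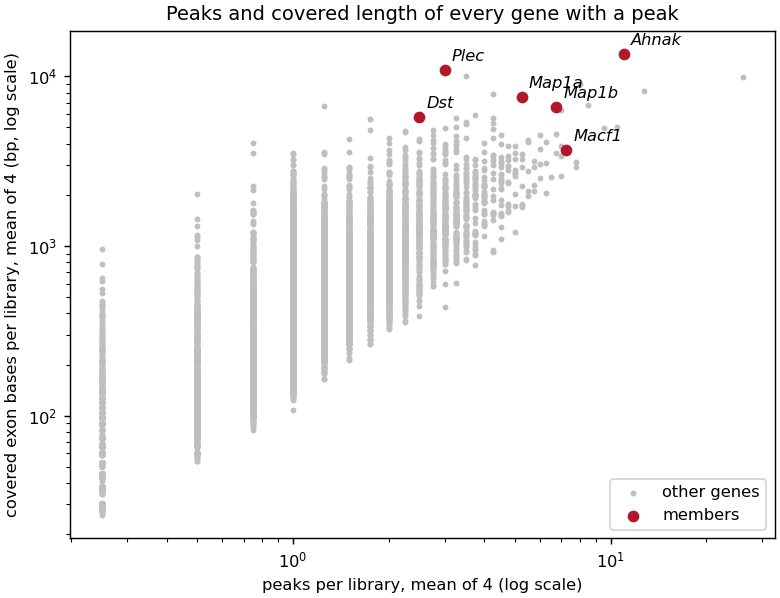
Mean number of peaks per library (x axis, log scale) against mean covered exon length per library in bp (y axis, log scale) for every gene with a peak; each point is a gene and the 6 genes described here are red. Ahnak and Plec lie highest of all genes, at 13497.5 and 10933 bp, and Plec lies above every other gene with 3 or fewer peaks per library.

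Most of the peaks lay in coding sequence. Of the 143 peaks, 126 (88.1%) were listed in coding sequence, 16 in the 3' untranslated region and 1, in Ahnak, in an exon with no finer class. None lay in the 5' untranslated region. Among the peaks of all other genes, 35.1% were in coding sequence. Peaks listed as coding made up 96.8% and 98.1% of the covered length in knockout 1 and 2, and 97.0% and 96.4% in wild type 1 and 2. Each peak has a single class, so a coding peak can hold bases outside the coding sequence. Plec positions 76171994 to 76172233 were a 3' untranslated peak in wild type 2 but lay within coding peaks of knockout 1 and wild type 1. Peaks of Macf1 and Dst were coding throughout. The peak nearest the 5' end began 9416 bp after the start of the RefSeq gene span in Map1a and 10829 bp after it in Ahnak. The same distance was 42447 bp in Plec, 81062 bp in Map1b, 211603 bp in Macf1 and 255165 bp in Dst, introns included. At the other end, peaks came within 30 bp of the end of the span in Plec and 461 bp in Map1b. They ended 1170 bp before it in Macf1 and 1438 bp in Map1a. In Dst and Ahnak, 55689 and 58195 bp followed the last peak. Several of these distances were set by peaks in regions that a single library listed. At the 5' end these were knockout 1 peaks of Plec (strength 28.9) and Dst (strength 14.6). At the 3' end they were a knockout 2 peak of Macf1 (strength 52.6), a wild type 2 peak of Dst (strength 26.4) and a knockout 1 peak of Ahnak (strength 24.2). The shared Macf1 region nearest the 3' end lay at positions 123456260 to 123456650. Outer edges of shared regions differed between libraries too. In Map1a the first peak began at position 121299006 in wild type 1, and at 121299557 or later in the other libraries. Of the 6 RefSeq promoter windows found for Dst, Map1a, Map1b, Macf1 and Ahnak, 0 held a peak.

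**Figure D2:**
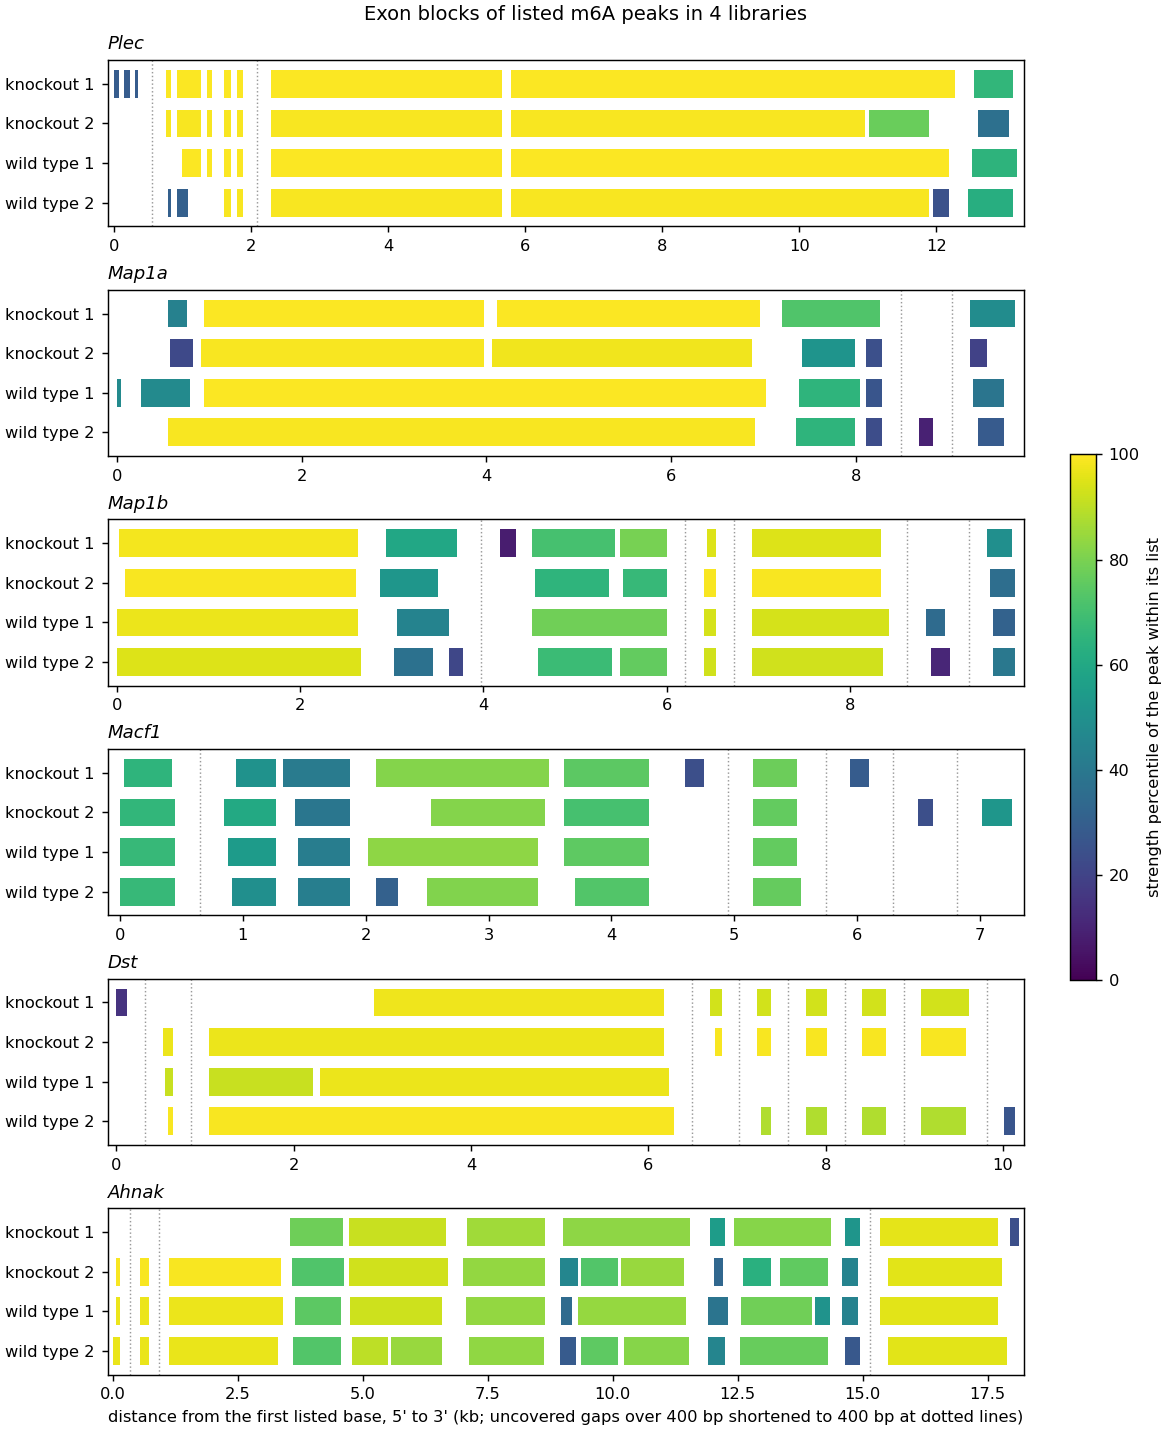
Exon blocks of every listed peak of the 6 genes in knockout 1, knockout 2, wild type 1 and wild type 2 (rows, top to bottom), drawn 5' to 3' as distance in kb from the first listed base. Long gaps that no library covers are shortened at the dotted lines, and the colour is the strength percentile of the peak within its list. The longest blocks of a gene are among its strongest, and most blocks recur in all 4 rows; the first Ahnak blocks are absent from knockout 1.

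Plectin carried the longest peak of each of the 4 lists. The Plec gene (ENSMUSG00000022565) lies on the minus strand of chromosome 15, positions 76170974 to 76231378 (mm10). Its longest peak covered 10586 exon bases in 7 blocks in knockout 1 and 9267 in 7 blocks in knockout 2. In wild type 1 it covered 10346 bases in 6 blocks, and in wild type 2 it covered 9687 in 5 blocks. The runner-up in every list was Spen, with 8094 to 8304 bases. The Plec peak had no finite log10 p-value in any library, and its fold stood at percentiles 99.2 and 98.6 of the knockout lists and 99.3 and 97.9 of the wild-type lists. A block of 3381 bp at positions 76178519 to 76181899, a whole number of codons (1127), was covered from end to end in all 4 libraries. The smaller blocks of 99 and 105 bp on its 5' side were complete in all 4 as well. Farther 5', coverage thinned out: the block of 357 bp at positions 76183523 to 76183879 was complete in both knockout libraries and covered for 285 bp in wild type 1 and 163 bp in wild type 2. In wild type 2 that part belonged to a separate weak peak at a fold of 2.03. How many blocks of the series are covered in such an order was not computed, and this order was not read as a change.

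The 3' end of Plec held weaker peaks. A peak in the 3' untranslated region, within positions 76171004 to 76171724, was found in all 4 libraries. Its strength was 65.7 in knockout 1 and 36.6 in knockout 2, against 64.5 in wild type 1 and 62.8 in wild type 2. Between it and the long peak, 179 bp were bare in every library. The long region itself was broken in knockout 2, by 59 bp after position 76173163, and in wild type 2, by 59 bp after position 76172233. A peak of 181 bp in 3 small blocks, at positions 76188584 to 76188931, was listed in knockout 1 alone, at a fold of 2.71.

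Dystonin had few peaks, and the strong ones were long. The Dst gene (ENSMUSG00000026131) lies on the plus strand of chromosome 1, positions 33907888 to 34308662. The region at positions 34186832 to 34193222 was listed in all 4 libraries, with best strengths of 97.4 and 96.9 in knockout 1 and 2 and 97.3 and 99.1 in wild type 1 and 2. Knockout 2 and wild type 2 had a single peak there, of 5251 and 5311 exon bases. Wild type 1 had 2 peaks separated by 89 bp. Knockout 1 listed only the 3' part, 3271 bp from position 34189832 on. That library and wild type 1, from different genotypes, were thus the ones that differed.

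A second strong Dst region crossed exon junctions at positions 34195929 to 34201403. It held 1321 exon bases in knockout 1, 1231 in knockout 2 and 1111 in wild type 2, at strengths of 93.0, 99.1 and 88.0, and no peak in wild type 1. Blocks of 234 and 267 bp were complete in all 3 of these libraries. The other Dst peaks were 121 bp each and stood alone, at position 34163053 in knockout 1 (strength 14.6) and at position 34252853 in wild type 2 (strength 26.4). Peaks of other listed genes also lay inside the Dst span. Those of Gm26788, a transcript of the opposite strand with a peak at positions 34177098 to 34178446, had strengths of 92.9 and 92.6 in knockout 1 and 2 and 92.0 and 88.9 in wild type 1 and 2. They did not overlap a Dst peak.

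Macf1, which guides microtubules along actin, had many peaks of middling strength and none among the strongest 10% of any list. The gene (ENSMUSG00000028649) lies on the minus strand of chromosome 4, positions 123349633 to 123687802. Its strongest peak, within positions 123472420 to 123473890, had strengths of 81.4 and 81.3 in knockout 1 and 2, and of 83.0 and 81.1 in wild type 1 and 2. It belongs to a cluster of single-block coding peaks between positions 123471161 and 123476199. There 5 regions were found in all 4 libraries, separated by bare gaps of 59 to 688 bp. Peaks covered 69.8% and 58.4% of the cluster in knockout 1 and 2, and 66.2% and 57.9% in wild type 1 and 2. The most 5' of these regions, at positions 123475749 to 123476199, was 391 bp long in knockout 1 and 451 bp in the other 3 libraries. A sixth shared region lay farther 3', at positions 123456260 to 123456650, with strengths of 77.6 and 75.9 in the knockout and 76.0 and 76.2 in wild-type lists. The remaining 4 Macf1 regions were each found in 1 library. Knockout 2 had those at positions 123350803 (strength 52.6) and 123385464 (24.0), and knockout 1 those at positions 123394117 (28.9) and 123471161 (24.2).

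The long coding stretch of Map1a was listed as 1 long peak in each wild-type library and as 2 long peaks in each knockout library. Map1a (ENSMUSG00000027254) lies on the plus strand of chromosome 2, positions 121289590 to 121310832, and its protein binds microtubules, chiefly of mature neurons. In the knockout the stretch was broken after position 121302973 in both libraries, by 149 bp in knockout 1 and 89 bp in knockout 2. The parts were 3027 and 2848 bp long in knockout 1 and 3057 and 2818 bp in knockout 2. In wild type 1 a single block of 6084 bp ran through, and in wild type 2 a single block of 6354 bp. These were the longest single-block peaks of both wild-type lists, while Rai1 (5665 bp) and Sox4 (3507 bp) held that place in knockout 1 and 2. With the short peak before it, the region at positions 121299006 to 121306030 had 3 peaks in each knockout library, 2 in wild type 1 and 1 in wild type 2. Of the 6589 regions listed in all 4 libraries, 0.728% had more peaks in each knockout than in any wild-type library, and 0.850% the reverse. Among the 25 such regions of the 6 genes it was 1 and 0. The Map1a region, at 6803 bp, is wider than most of the regions in this background. Of those of other genes, 1363 reached 1000 bp and 4888 were of 250 bp to under 1000 bp. The share among wide regions alone was not computed. The break in knockout 2 is narrower than 100 bp, so joining peaks across that distance leaves it in knockout 1 alone.

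All long Map1a peaks had strengths between 97.7 and the tied top. Their fold stood at percentiles 92.6 to 96.9 in the knockout lists and 94.4 to 95.5 in wild-type lists. Downstream, the coding region at positions 121306209 to 121307288 was a single peak of 1050 bp in knockout 1 and a pair of peaks in each of the other 3 libraries. Its best strength was 72.6 and 51.7 in knockout 1 and 2, against 65.0 and 64.9 in wild type 1 and 2. In the 3' untranslated region a weak peak within positions 121308914 to 121309394 was shared by all 4 libraries, with strengths of 48.2 and 19.9 in the knockout and 38.9 and 28.4 in wild type. A peak of 151 bp at position 121308105 was found in wild type 2 alone (strength 9.25).

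Map1b, the form of the family that is abundant in growing axons, had 2 strong coding regions at the ends of its covered part. The gene (ENSMUSG00000052727) lies on the minus strand of chromosome 13, positions 99421464 to 99516602. The 5' one, within positions 99432874 to 99435540, was 1 peak in each library, of 2607 and 2517 bp in knockout 1 and 2 and 2637 and 2667 bp in wild type 1 and 2. Its strength was 98.1 and 99.1 in the knockout lists and 97.1 and 94.7 in wild-type lists. Its fold stood lower within the lists, at percentiles 91.5 and 86.9 in the knockout and 79.7 and 68.4 in wild type. The 3' one, within positions 99424471 to 99427346, crossed a junction to a small block of 128 bp, of which knockout 1 covered 98 bp. Strengths there were 94.7 and 99.1 in the knockout and 93.4 and 92.9 in wild type. Fold percentiles there overlapped, at 77.6 and 89.9 in the knockout and 85.1 and 89.9 in wild type. How many regions of the series have such an order of strength or fold was not computed. The orders in these 2 regions were not read as a change.

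Between these, Map1b carried weaker coding peaks. The region at positions 99429489 to 99430957 was split in 2 peaks in knockout 1, knockout 2 and wild type 2 and whole in wild type 1. The region at positions 99431765 to 99432664 had best strengths of 59.7 and 52.4 in knockout 1 and 2, above 44.8 and 37.3 in wild type 1 and 2. Its knockout peaks were also longer, at 780 and 630 bp, against 570 bp in wild type 1 and 151 and 420 bp in wild type 2. The share of all regions with such an order of strength or of length was not computed. The lists differ in length and their depth is unknown, so neither order was read as a change. A peak of 181 bp at position 99431136 was found in knockout 1 alone, at strength 8.10, the lowest of all 143 peaks. Map1b also held the single wild-type-only region of the 6 genes, in the 3' untranslated region at positions 99423752 to 99424022. Its peaks were weak, with folds of 16.6 in wild type 1 and 8.88 in wild type 2 and strengths of 34.7 and 10.8. The other 3' untranslated peak, within positions 99421925 to 99422225, was shared by all 4 libraries, at strengths of 49.5 and 35.8 in the knockout and 31.2 and 39.9 in wild type.

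Ahnak was covered over most of a stretch of 17042 bp without an exon junction, at positions 9001699 to 9018740 on the plus strand of chromosome 19. Peaks covered 71.6% of it in knockout 1 and 79.9% in knockout 2, against 80.9% in wild type 1 and 79.3% in wild type 2. The gene (ENSMUSG00000069833) had 9 and 12 peaks in knockout 1 and 2, and 11 and 12 in wild type 1 and 2. Of its 10 regions, 8 were found in all 4 libraries. Within the stretch, 9 gaps of 59 to 449 bp were bare in every library, and 88.1% of the bases were covered in at least 1 library. The region at the 3' end, positions 9015955 to 9018501, had strengths of 95.7 and 95.5 in knockout 1 and 2 and 95.5 in each wild-type library, with peaks of 2278 to 2368 bp. The region at positions 9005291 to 9007268 was strong too, at 91.7 and 92.9 in the knockout and 92.2 and 90.1 in wild type. Weak, short regions lay between the strong ones, such as that at positions 9015146 to 9015505, of 300 to 330 bp in each library, with strengths of 52.3 and 44.8 in the knockout and 44.5 and 27.0 in wild type. In the middle, at positions 9009514 to 9012120, knockout 1 had a single peak of 2547 bp, knockout 2 and wild type 2 had 3 peaks each and wild type 1 had 2.

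The first Ahnak region was absent from knockout 1. At positions 9000113 to 9003973 it joined 2 small exon blocks, including 1 of 188 bp, to the start of the long stretch. It covered 2517 exon bases in knockout 2 and 2547 and 2517 in wild type 1 and 2. It was the strongest Ahnak peak of each of these 3 lists, at 99.1 in knockout 2, 97.2 in wild type 1 and 96.9 in wild type 2, with folds of 175, 428 and 600. No peak of any gene was listed there in knockout 1, whose Ahnak peaks began at position 9004122. Of 2194 regions found in exactly 3 libraries, 40 were at least this strong on average. Of these 40, 19 were missing from knockout 1, 5 from knockout 2, 7 from wild type 1 and 9 from wild type 2. Among all 2194, 466 were missing from knockout 1 and 828 from knockout 2, against 411 from wild type 1 and 489 from wild type 2. Read depth and the peak caller's settings were not analysed here, and their part in this absence was not tested.

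**Figure D3:**
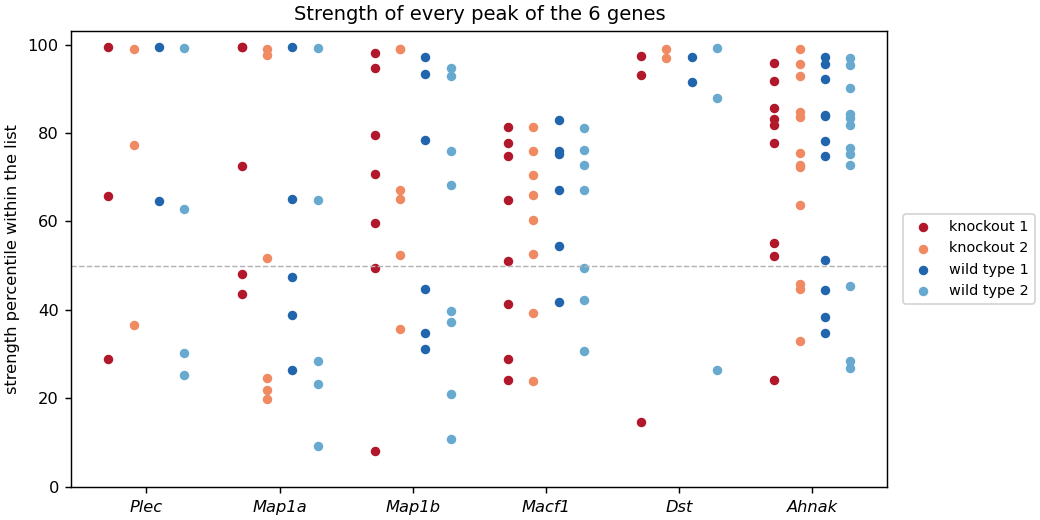
Strength percentile within its list (y axis) of each of the 143 peaks, by gene (x axis) and library (colour); the dashed line marks percentile 50, the middle of a list. The strongest Macf1 peak is at 83.0, while each of the other 5 genes has peaks above 90 in every library.

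The peaks were for the most part shared, and the unshared ones were short. Of the 38 regions, 25 (65.8%) were found in all 4 libraries, where 42.5% of all regions of the series were. Another 10 were found in a single library, as were 28.3% of all regions, 1 in 2 libraries and 2 in 3. Width goes along with sharing in the whole series, in part because a region joined from more lists is wider. Of the regions of 1000 bp or more, 14 of 16 (87.5%) in the 6 genes and 75.7% of 1801 in other genes were in all 4 libraries. From 250 bp to under 1000 bp it was 11 of 12 (91.7%) and 60.1% of 8138, and under 250 bp 0 of 10 and 5.68% of 5510. The 10 peaks of a single library were 121 to 241 bp long, with strengths of 8.10 to 52.6. No test of these shares was run.

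Counted base by base, 39479 of the 54321 bases covered in any library (72.7%) were covered in all 4. For all other genes this share was 42.9%. It was highest in Plec (88.5%), followed by Map1a (79.6%), Map1b (79.3%), Ahnak (67.8%), Macf1 (64.3%) and Dst (47.2%). In Dst and Ahnak another 42.4% and 21.1% of the bases were covered in 3 libraries, among them the parts of both Dst regions that knockout 1 or wild type 1 lacked and the first Ahnak region. Bases listed in both knockout libraries alone made up 1.10% of those of the 6 genes, and bases listed in both wild-type libraries alone 0.773%. In all other genes these were 2.49% and 2.51%.

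**Figure D4:**
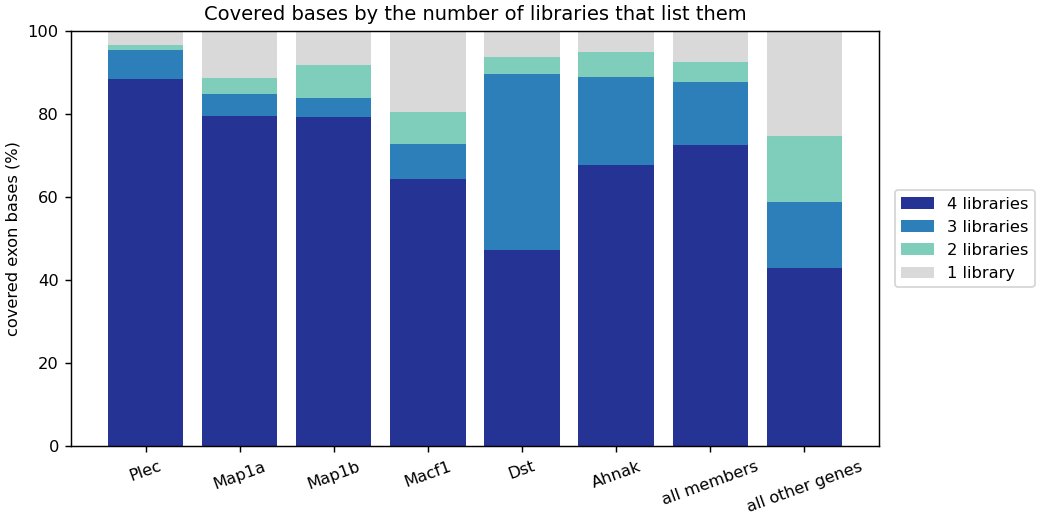
Share of covered exon bases (y axis, %) that peaks of 4, 3, 2 or 1 libraries list, for each of the 6 genes, for all 6 together and for all other genes (x axis). The share covered in all 4 libraries runs from 47.2% in Dst to 88.5% in Plec, and is 42.9% in all other genes.

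No difference between the genotypes could pass a test, since a two-sided exact permutation test of 2 against 2 libraries cannot give a p below 0.333. The 6 genes together had 35 and 37 peaks in knockout 1 and 2, against 32 and 39 in wild type 1 and 2. The means were 36 ± 1.41 in the knockout and 35.5 ± 4.95 in wild type (SD, n = 2 each). Without wild type 1 the difference, knockout minus wild type, was -3 peaks, without wild type 2 it was 4, and without knockout 2 it was -0.5. A knockout-only region, listed in both knockout libraries and absent from the wild-type lists, was found 0 times, and a wild-type-only region, the reverse, once, in Map1b. The shares of all regions were 2.51% and 2.02%. These counts lean on single libraries, in part by the rule itself. With 1 library of a genotype left out, a region listed in the other alone counts as following the genotype. Knockout-only regions numbered 6 without knockout 2 and 2 without knockout 1, all of them regions of a single library. They numbered 1 without wild type 2. Wild-type-only regions numbered 3 without wild type 1 and 2 without knockout 2. The shares of all regions under these settings are not given here.

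Macf1 was the only 1 of the 6 genes whose number of peaks did not overlap between the genotypes. It had 8 peaks in each knockout library, against 6 and 7 in wild type 1 and 2, a difference of 1.5 peaks (exact permutation test, two-sided, p = 0.333, the smallest possible). The background was 2.78% of genes with more and 2.57% with fewer peaks in both knockout libraries. In each knockout library 2 of the 8 were single-library peaks at places that differed between the libraries, so no Macf1 region followed the genotype. Peaks of the early neural markers numbered 8 and 6 in knockout 1 and 2, against 5 in each wild-type library, and were not read as a change. Counts of the other marker lists overlapped between the genotypes. The part of the cells present in the Macf1 count was not tested.

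Covered length overlapped between the genotypes in each of the 6 genes, where 12.0% of the genes listed in all 4 libraries had a longer and 11.6% a shorter covered length in both knockout libraries. Plec averaged 10963.5 ± 530 bp in the knockout and 10903 ± 147 bp in wild type (SD, n = 2 each), the closest pair of means. Ahnak averaged 13040.5 ± 1190 bp in the knockout and 13954.5 ± 146 bp in wild type. Without its first region, which knockout 1 lacked, it had 12199 and 11365 bp in knockout 1 and 2, against 11511 and 11334 bp in wild type 1 and 2. Summed over the 6 genes, the covered length was 46643 and 47906 bp in knockout 1 and 2 and 48526 and 48656 bp in wild type 1 and 2, with no overlap. Without the first Ahnak region it was 46643 and 45389 bp in the knockout and 45979 and 46139 bp in wild type, and the genotypes overlapped.

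**Figure D5:**
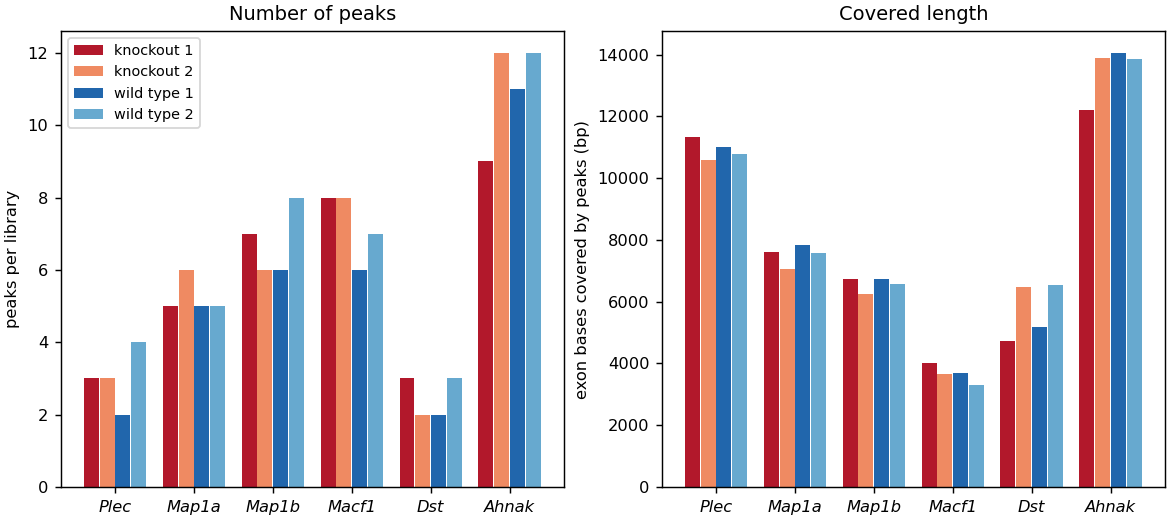
Number of peaks (left, y axis) and covered exon length in bp (right, y axis) of each gene (x axis) in knockout 1, knockout 2, wild type 1 and wild type 2 (bars, left to right within a gene). Covered length overlaps between the genotypes in all 6 genes, and the number of peaks does in all but Macf1.

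The coding share of the 143 peaks was 88.6% and 91.9% in knockout 1 and 2, against 87.5% and 84.6% in wild type 1 and 2. The difference of the means was 4.17 percentage points, with SDs of 2.35 in the knockout and 2.04 in wild type (n = 2 each). The 3' untranslated region held 3 peaks in each knockout library, against 4 in wild type 1 and 6 in wild type 2. Those 6 included the Plec peak of 240 bp at position 76171994, split by 59 bp from the long coding peak. Knockout 1 and wild type 1 listed its bases within a coding peak. With 32 to 39 peaks per library, these shares turn on few peaks. Among the peaks of all other genes the genotypes overlapped. Their coding share was 33.5% and 36.3% in knockout 1 and 2, against 35.3% and 35.4% in wild type 1 and 2. Their 3' untranslated share was 38.8% and 38.3% in the knockout and 38.6% and 38.4% in wild type. With each peak of the 6 genes weighted by its length, the difference in coding share was 0.758 percentage points and the genotypes overlapped.

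From a list of 53 other genes of the linker and filament machinery, 40 had a peak in some library and 31 of the 40 (77.5%) in all 4, where 57.1% of all genes with a peak did. Their median covered length was 787.5 bp per library. The most peaks per library were in EPPK1 (8.5, epiplakin, a plakin made of plakin repeats), which the lists spell in capitals, and in Ahnak2 (4.75), the relative of Ahnak. EPPK1 peaks lay on chromosome 15 between positions 76102388 and 76112673, next to Plec, all in coding sequence, and covered 6755 bp per library. Next came Map4 (3.75), a microtubule-associated protein of many tissues, Sptbn4 (3.25), Syne1 (3.25), a nesprin of the nuclear envelope, and Sptbn1 (3), a beta spectrin like Sptbn4. Of the 40 genes, 1 was knockout-only and 0 were wild-type-only, against 2.27% and 1.56% of all genes with a peak. The knockout-only gene was Itgb4, the integrin subunit that plectin binds in hemidesmosomes. Its peak, at positions 116008292 to 116008412 of chromosome 11 in the 3' untranslated region, was weak, with strengths of 16.8 and 5.69 in knockout 1 and 2. With read depth unknown, a transcript without a listed peak may still carry m6A.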

How the data were processed

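For each library 1 peak list was deposited. The authors' lists give each peak its ends, the count of its exon blocks, a transcript class, a gene, a p-value, a score on the log10 scale for it and for its adjusted value, and a fold enrichment (a ratio to a background that the file headers do not name). Per the submitters' processing notes, HISAT2, HOMER and mm10 were used. Which step each served, and what called the peaks against what input, is not given in the sources used here. Starts were read as counted from 0 and are given from 1. RefSeq gene spans and promoter windows are those of GRCm38.p6, the assembly of mm10.

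Peaks off the reference chromosomes (17) were left out. Peaks of the lists whose exon blocks overlapped by at least 1 bp were joined into regions. No peak of the 6 genes overlapped a peak on the other strand or of another gene, and all had an adjusted p-value under 0.05. No test across genes was run, and p-values with 2 against 2 libraries are exact permutation tests. The joining was tested on simulated lists of whole, slightly shifted peaks. They held no peaks split differently between lists, so that case was not tested. The genes, the related list and the tests were chosen with earlier results of these data known; named genes are the 6, the 5 others with the most peaks, and from the related list up to 6 with the most peaks and any that followed the genotype, of which some are not reported here. Spen, Rai1, Sox4 and Gm26788 were named after their values were seen, and the capital spelling EPPK1 was matched to the related list once the lists had been read. No genome was used, so no peak sequence is shown. Alternatives were an adjusted p-value limit of 0.05, only the stronger 50% of peaks, equally long lists, reciprocal overlap of 50%, a gap of 100 bp, whole spans, the same strand, bases in place of peaks, and leaving out each library. Tables were computed in Python 3.11.15 with pandas 2.3.3, scipy 1.17.1 and numpy 2.4.6.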

Additional observations from a re-analysis of the deposited data

How the results depend on the processing

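Shared regions, 25 of 38 with all libraries, numbered 17 of 25 in the stronger 50% of each list. They numbered 23 of 56 with a reciprocal overlap of 50% and 23 of 35 with a gap of 100 bp. Leaving out each library, 25 to 27 were shared by all that remained. Most regions were thus not shared under the reciprocal overlap. The shares of all regions of the series under these alternatives are not given here. Knockout-only regions, 0 with all libraries, numbered 1 in the stronger 50% of each list (the Map1b region at position 99431765), 3 with a reciprocal overlap of 50%, and 0 to 6 leaving out each library. Wild-type-only regions, 1 with all libraries, numbered 0 in the stronger 50%, 2 with a reciprocal overlap of 50% and 1 to 3 leaving out each library. Both ranges include counts in which the single library left of a genotype stood for both. A reciprocal overlap separates long peaks from the parts they are split into elsewhere, and gave 56 regions in place of 38. The difference in peak number, 0.5, was -0.5 with lists of equal length, 3.5 in the stronger 50% and -3 to 4 leaving out each library. The difference in coding share, 4.17 percentage points, was 0.758 with peaks weighted by length and 2.51 to 5.83 leaving out each library. An adjusted p-value under 0.05, whole spans and the same strand changed none of the values they were tried on. The limit and the strand setting could not change them, since no peak of the 6 genes failed the limit or overlapped an opposite-strand peak. No paired analysis was possible because wild-type titles give no number that could be matched with the numbered knockout titles. Depth is unknown here, so a missing peak cannot be set against the reads that could have shown it.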
